A study of Mus musculus with 25 samples.

Results

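Back skin from mice at postnatal day 14, when the follicles are in full growth, was compared with back skin at postnatal day 23, when they rest for the first time. The comparison holds 6 of the 25 arrays of the series, 3 labelled Postnatal day 14 and 3 labelled Postnatal day 23, each labelled with a mouse of its own (mouse 1, 2 or 3). The arrays were chosen by their labelled age, and all 12422 probe sets that are not array controls entered the analysis. Of these, 8825 probe sets passed the filter on low intensities, and they stood for 6562 genes with 1 symbol. All 25 arrays carried whole RNA from back skin, and the sources used here name no treatment, strain or sex. The other arrays compared below are labelled as 3 mice each at days 1, 6 and 17 and at 9 weeks. The remaining arrays are labelled as 3 mice at 5 months and 4 mice at 1 year. They appear in the plots of single genes by age. They also enter the percentiles behind the floor and filter, and the alternative fit of all 25 arrays. Age and hair cycle phase cannot be told apart in this comparison, since all day 23 mice were 9 days older. In whole skin, fewer cells of a type and less RNA per cell cannot be told apart either.

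A hair follicle passes again and again from growth, called anagen, to regression, called catagen, and to rest, called telogen. In growth, matrix cells at the base of the follicle divide under signals from the dermal papilla and give rise to the hair shaft, the inner root sheath around it and the outer root sheath, while melanocytes in the bulb pass pigment to the shaft. In rest, the lower follicle is gone and a short epithelial column with the bulge stem cells remains. The skin itself changes with the cycle, the fat layer included, and back skin also holds a thin sheet of skeletal muscle, the panniculus carnosus.

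The 6 arrays separated by age. Over all probe sets kept, arrays of day 14 correlated with each other at r of 0.963 to 0.965, arrays of day 23 at 0.965 to 0.968, and arrays of different age at 0.785 to 0.808. The deposited intensities had the same mean on every array once the lowest and highest 2% of probe sets were left out, but the highest intensity was 55128.8 to 64133.3 on day 14 and 22033.5 to 25989.6 on day 23. The ages fell into one set with high and one with low top intensities, with days 6 and 14 and 9 weeks in the first and days 1, 17 and 23 in the second; this property and age cannot be told apart for day 14 against day 23. The ratio of the 3' to the 5' control probe set of Gapdh was 0.924 to 0.943 on day 14 and 0.866 to 0.895 on day 23, and that of Actb was 1.2 to 1.31 and 1.03 to 1.19. Xist alone was above the floor on 2 of 3 arrays of day 14 and on 1 of 3 of day 23, and the Y-linked Eif2s3y alone on the remaining 1 and 2 arrays, so both ages held both sexes. On all 6 arrays of days 6 and 17, and on those of mice 1 and 3 of day 1, both genes were above the floor. Each of these arrays is labelled as 1 mouse, and whether RNA was pooled there was not tested. These arrays enter the spread of the fits below, and what pooling would do to the standard errors and adjusted p was not tested either.

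Skin in growth and skin in rest differed over much of the array, with genes of the hair shaft and its sheath, pigment and cell division higher on day 14 and genes of muscle, fat, matrix, vessels and macrophages lower. With limma and a Benjamini-Hochberg adjusted p under 0.05, 2151 probe sets were higher on day 14 (24.4% of those tested) and 2624 were lower (29.7%). For genes, each read from its brightest probe set, 1659 were higher (25.3%) and 2033 lower (31%). These shares are the background for each count of list members below. Among these called genes, the 3 arrays of one age did not overlap with the 3 of the other for 1593 of the higher and 1961 of the lower. The share without overlap over all genes tested is not given here. Lack of overlap rests on the same arrays as the calls, so here and below it is not a separate result. The largest differences lay on the side of growth: 141 genes were at least 4-fold higher and 38 at least 16-fold higher on day 14, against 231 at least 4-fold lower and 1 at least 16-fold lower. Higher calls made up 45% of all calls under the authors' scaling and 55.5% when each array was centred on its median, because the median log2 difference of all probe sets moved from -0.05 to 0.07. Differences of that size in a list's median are therefore not read as a direction.

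The hair shaft genes gave the largest differences in the skin. They encode the keratins of the shaft and the keratin-associated proteins that crosslink them. Upstream sequence is shown for 4 shaft and sheath genes among the largest differences and for 2 strongly higher genes without an exact TATAAA. All stretches lie on the minus strand (RefSeq, build GRCm38.p6) and hold 100 bases ending at the base before the transcript start, 5′ to 3′. Capitals mark TATAAA, the core of a TATA box. The stretches are chr11:99322952-99323051 (Krt25, an inner root sheath keratin), chr11:100050552-100050651 (Krt31) and chr11:100041555-100041654 (Krt34), then chr16:89487953-89488052 (Krtap8-1), chr16:88826146-88826245 (Krtap14) and chr13:53472781-53472880 (Msx2, a homeobox transcription factor of the hair matrix).
Krt25: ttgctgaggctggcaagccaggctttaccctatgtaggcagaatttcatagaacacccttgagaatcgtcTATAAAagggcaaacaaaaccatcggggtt
Krt31: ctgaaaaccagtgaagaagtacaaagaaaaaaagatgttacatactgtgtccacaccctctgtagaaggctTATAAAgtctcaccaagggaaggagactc
Krt34: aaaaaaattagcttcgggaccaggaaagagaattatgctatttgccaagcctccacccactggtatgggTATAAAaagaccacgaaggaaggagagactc
Krtap8-1: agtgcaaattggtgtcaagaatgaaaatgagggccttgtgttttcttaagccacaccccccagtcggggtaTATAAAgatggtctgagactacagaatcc
Krtap14: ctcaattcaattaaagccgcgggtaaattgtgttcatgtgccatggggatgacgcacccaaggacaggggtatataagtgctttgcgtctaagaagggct
Msx2: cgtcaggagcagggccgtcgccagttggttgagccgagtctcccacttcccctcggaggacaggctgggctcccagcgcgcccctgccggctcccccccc

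In these stretches TATAAA began 30 bases before the start in Krt25, 29 in Krt31, 31 in Krt34 and 29 in Krtap8-1. Krtap14 holds the similar letters tatataag at a like distance from the start, so it lacks the exact match only. RefSeq's table of promoters, which run from 250 bases before to 50 bases after the start, matched 18 of the 26 hair shaft genes tested. TATAAA on either strand stood in 14 of those 18 promoters (77.8%) and in 5 of 11 of the inner root sheath list (45.5%), against 14.2% of all 27025 promoters in the table and 9.23% of the promoters of genes tested. Among genes at least 4-fold higher on day 14, 30.6% of promoters held it, against 17.9% among genes at least 4-fold lower. The at least 4-fold higher genes include most of the hair shaft and inner root sheath genes. Their share is therefore not a separate result, and the share without those genes was not computed. The share among all genes called higher was 9.92%, close to that of all genes tested. Between 40 and 20 bases before the start on the gene's strand, a window chosen after its matches had been seen, TATAAA began in 38.9% of hair shaft promoters and 2.22% of all promoters. CTTTGA, the core bound by LEF and TCF factors, stood in 33.3% of hair shaft promoters, 12.4% of those of genes tested and 16.2% of all on either strand. A match describes the letters only. Several of these genes lie side by side on chromosome 11 and resemble each other, so their promoters are not independent.

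Of the 26 hair shaft genes tested, 25 were higher on day 14 and none was lower, against a background of 25.3% higher, and their median log2 difference was 6.46 against -0.05 for all genes. The exception was Selenbp1, a selenium-binding protein gene, at a log2 difference of -0.26, which was not called. Krtap9-1, a keratin-associated protein gene on chromosome 11, gave intensities of 49951.8, 58056.7 and 53087.1 on day 14 and 46.4, 41.8 and 26.8 on day 23. It passed from the brightest class of probe sets to levels near the floor of 32.9, below which values were not distinguished. Its log2 difference of 10.39 ± 0.14 (SE, limma adjusted p = 1.53e-17) was the largest of all genes. Krt83, a keratin of the hair cortex, gave 17350.6, 18904.3 and 17539.9 on day 14 against 42, 33.8 and 38.5 on day 23. Krt34, also a shaft keratin, gave 22385.4, 24539.7 and 24348 against 71.1, 21.8 and 78.7. Krt31 gave 28680.5, 33717.4 and 33838.3 against 146.4, 85.5 and 104.4. In these genes the lowest array of day 14 was more than 100 times as bright as the highest array of day 23.

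The keratin-associated protein genes on chromosome 16 behaved alike. Krtap8-1 gave 30652.1, 40108.5 and 41048.7 on day 14 and 139, 104.4 and 96.4 on day 23, a log2 difference of 8.37 ± 0.14. Krtap14 gave 31652.4, 35910.1 and 35706.1 against 153, 116.6 and 84.8. Krtap6-2 gave 22094.9, 26487.4 and 25337.7 against 92.3, 134.3 and 50.9. Krtap19-5 was at the floor on all 3 arrays of day 23 and at 6687.1, 7435.5 and 7838 on day 14, which makes it at least 222-fold higher. Gm10228 and Gm10229, gene models on the same chromosome, were also among the 12 largest, with means on day 14 of 12890 and 57000. Crym, which encodes mu-crystallin and was counted with the shaft genes, was at the floor on day 23 and at 5963.5, 7225.3 and 6551.9 on day 14, at least 199-fold higher. Members of these families have near-identical relatives, and how far a probe set reads more than 1 of them was not tested. In all, 5 of the 26 hair shaft genes were at the floor on every array of day 23. Such genes entered at the floor, so that their own differences are lower bounds at that floor. The summed intensity of the list was 480600 to 551300 on day 14 and 6572 to 7130 on day 23, and the 36 hair shaft and inner root sheath genes together made up 6.31% to 6.96% of all intensity on day 14 and 0.152% to 0.167% on day 23.

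The inner root sheath, the rigid sleeve that moulds the growing shaft, followed the same pattern, with 10 of 11 tested genes higher on day 14, none lower and a median log2 difference of 5.48. Krt25 gave 25998.5, 28424 and 27733.9 on day 14 and stood at the floor on all 3 arrays of day 23, so that it was at least 832-fold higher. Krt71 gave 40543.2, 45231.3 and 44408.6 on day 14 against 256.9, 196.4 and 265.8 on day 23. Krt27 gave 28132.9, 34788.6 and 34972.7 against 258.6, 166.6 and 211.5. The groups did not overlap in any of these 3 keratin genes. The enzymes of the sheath were higher too. Padi3, which turns arginine of sheath proteins into citrulline, gave 5228.7, 3777.2 and 4185.1 on day 14 and was at the floor on day 23, at least 132-fold higher. Tgm3, which crosslinks sheath and envelope proteins, gave 1248, 1724.2 and 1423.3 against 81.2, 93 and 108.3, a log2 difference of 3.96 ± 0.17. Tchh, the sheath protein trichohyalin, differed by 4.52, and Gata3, a transcription factor of the sheath, was not called at 0.11.

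**Figure D1:**
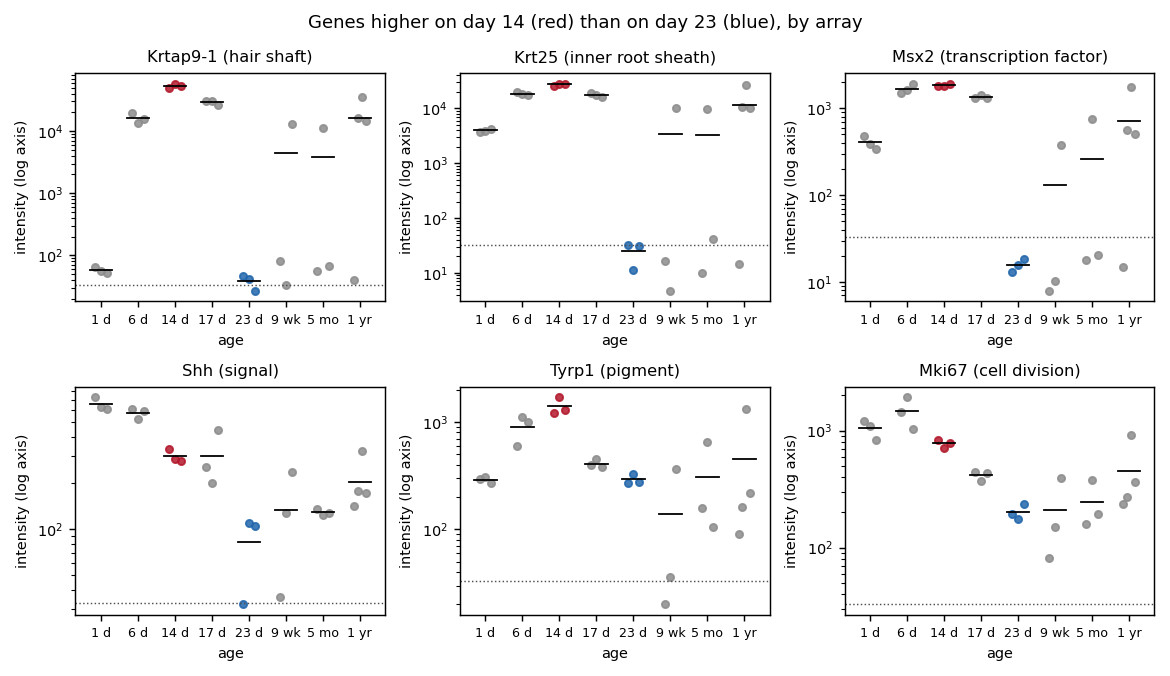
Intensity (log axis) of 6 genes on each of the 25 arrays by age, with day 14 in red, day 23 in blue, other ages in grey, short bars at the mean of an age and a dotted line at the floor of 32.9. Krtap9-1, Krt25 and Msx2 lie at or near the floor on day 23 and above 1700 on every array of day 14, while Shh, Tyrp1 and Mki67 are lower on day 23 by smaller factors; at 9 weeks, 5 months and 1 year single arrays stand apart from the others of their age.

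The outer root sheath and bulge list split. Of its 17 tested genes, 5 were higher and 7 lower on day 14, and its median log2 difference was -0.17. The higher members were mainly keratins of the growing sheath. Krt16 gave 681.5, 883 and 707.4 on day 14 against 74.9, 112.8 and 82.8 on day 23, and Krt17 gave 19185.8, 19391.3 and 17695.6 against 3005.1, 3439.6 and 3827.9, a log2 difference of 2.46 ± 0.09. A further probe set of Krt17 went the other way, at -0.62, with means of 182.3 and 280.4. The lower members included genes used as markers of bulge stem cells. Cd34, a surface sialomucin of the bulge that endothelium also carries, gave 389.2, 461.3 and 526.4 on day 14 against 1600.6, 1893.6 and 2102.3 on day 23. Itga6, the α6 integrin of basal epithelium, gave 199.5, 174 and 172.1 against 614.2, 534.4 and 800.8. Nfatc1, a transcription factor of quiescent bulge cells, was lower by a log2 difference of -0.97 and Tcf7l1 by -0.44, whereas Lgr5 was not called at 0.45.

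Epidermal differentiation genes were divided as well, with 18 of 31 tested genes higher and 9 lower on day 14 and a median of 0.97 (0.40 after quantile normalisation). The genes higher on day 14 were led by small proline-rich proteins, which are crosslinked into the cornified envelope. Sprr2h gave 5864.1, 6362.4 and 7344.2 on day 14 and 23.3, 107.6 and 75.1 on day 23, a log2 difference of 6.66 ± 0.29. Sprr1a gave 52524.5, 52833.6 and 52576.3 against 3034.4, 2948.9 and 2614.4, and the envelope precursor involucrin (Ivl) gave 1152.7, 1055.7 and 1229.9 against 151.8, 99.3 and 150.4. The groups stood far apart in all 3 genes. Of the 3 keratins of the layers between follicles on the list, a pair was lower and Krt2 was not called, at a difference near 0. Krt1 was lower on day 14, at 978.9, 891.2 and 971 against 4312.5, 6104.3 and 6896.8, as was its partner Krt10, at 9298.1, 8238.6 and 8836.1 against 18006.2, 16999.3 and 15752.6. Lor, the main envelope protein loricrin, was not called at -0.23. Alox12b, a lipoxygenase of the skin barrier, was lower by a log2 difference of -1.91 and Casp14, a caspase of cornifying cells, by -1.25. Sprr2d, Sprr2i and Sprr2k are near-identical relatives of Sprr2h and were called at 1.15 to 1.42, while Sprr2b was not called at -0.28.

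Basal keratinocyte genes fell into 8 higher and 6 lower of 15 tested. The 6 lower genes were Col17a1, Itga6, Itgb1, Itgb4, Lama3 and Lamb3, and the 8 higher were Cdh1, Cdh3, Dsc3, Itga3, Jup, Lgals7, Perp and Sdc1. Integrins thus stood on both sides, with Itga3, which binds laminin, higher by 0.85. Col17a1, a collagen of the hemidesmosome, gave 2505.6, 2466.7 and 2487.7 on day 14 against 7427.6, 6766.5 and 6609.9 on day 23, a log2 difference of -1.48 ± 0.08. Cdh3, the P-cadherin of the hair matrix, gave 1560.1, 1557.2 and 1463.2 against 717.3, 789.8 and 754.6. A second, dim probe set of Cdh3 was not called, and the mean of both gave 0.24 with an adjusted p of 0.367 (limma).

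The transcription factors of the follicle were mostly higher in growth, with 13 of 19 tested genes higher, 4 lower and a median of 1.07. Msx2 gave 1799.1, 1826.9 and 1901.5 on day 14 and stood at the floor on all 3 arrays of day 23, so that it was at least 56-fold higher. Foxn1, the factor that is mutated in nude mice and acts in the differentiating hair, gave 743.8, 891 and 752 on day 14 against 99.2, 22 and 68.3. Dlx3, a homeobox factor of matrix, shaft and sheath, gave 4765.4, 5161.6 and 5371.3 against 385.7, 352.1 and 383.1. No array of one age overlapped with the other in these 3 genes. Dlx2, a relative of Dlx3, differed by 3.23 ± 0.19, and Lef1, which acts with β-catenin in the hair precursors, by 1.42 ± 0.10, from 1704.6, 2125.8 and 2112.8 to 679.9, 776.5 and 758.9. Vdr, the vitamin D receptor that the hair cycle requires, differed by 1.07 ± 0.18, and its second, dimmer probe set was not called at 0.45. Hr (hairless), a corepressor that binds Vdr, gave 2971.2, 2372.2 and 1975.8 against 1934.9, 1116.2 and 2044.8, so that the groups overlapped. The adjusted p of Hr, 0.0481 (limma), rose to 0.274 without mouse 2 of day 23 and to 0.188 without mouse 1 of day 14. The 4 lower genes were Alx4, Dlx5, Sox18 and Tcf7l1, at -1.73 to -0.44.

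Of the hedgehog pathway, whose ligand Shh drives the hair matrix, 6 of 11 tested genes were higher and 1 lower on day 14. The higher count was 3 in the fit of all 25 arrays and 7 after centring on medians. Shh gave 334.4, 287.9 and 280.4 on day 14 and 32.4, 109.6 and 105.4 on day 23, a log2 difference of 2.05 ± 0.36 (limma adjusted p = 0.00021). Mycn, a proto-oncogene downstream of the pathway in other tissues, gave 483.2, 510.8 and 543.3 against 30.4, 67.7 and 86.2. The receptor and the effectors of the pathway differed less than the ligand. Ptch1, the Shh receptor and a target of the pathway, gave 542.3, 628.6 and 548.9 against 400.2, 469.7 and 485.8. Its log2 difference of 0.34 (adjusted p = 0.0391, limma) lost its call when either mouse 2 or mouse 3 of day 14, or mouse 1 or mouse 2 of day 23, was left out, at adjusted p of 0.0540 to 0.151. Gli1, a target and effector, was not called at 0.35 with an adjusted p of 0.192 (limma), and was called at 0.63 without mouse 1 of day 14. Gas1, a coreceptor for hedgehog proteins, was the lower member, at 1128.7, 1080.7 and 1422.9 against 2379, 2521.6 and 2520.6.

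In the Wnt pathway, which acts through β-catenin in hair formation, 12 of 37 tested genes were higher and 8 lower on day 14, and the lower count was 5 without mouse 1 of day 14 or without any single mouse of day 23. The ligands called higher were Wnt11, Wnt5a, Wnt4, Wnt5b and Wnt3. Wnt11 gave 364.7, 315.9 and 459.8 on day 14 and was at the floor on day 23, at least 11.4-fold higher, and Wnt5a gave 310.1, 343.7 and 361.2 against 103.3, 102.6 and 103.9. Wnt10b, a ligand of early growth, was not called, at 120.4, 123.4 and 166.5 against 139.3, 174.2 and 82, and Wnt7b was lower by a log2 difference of -1.23. The secreted inhibitors called lower included Sfrp2 and Sfrp4. Sfrp2 gave 229.5, 210.5 and 160.2 on day 14 against 1119, 862.5 and 1558.9 on day 23, and Sfrp4 gave 24.1, 184.6 and 48.8 against 501.6, 467.4 and 613.6. Dkk2, a further inhibitor, was lower at -0.88, while Sfrp1 and Dkk3 were not called at -0.08 and -0.04. Fibroblasts express several of these inhibitors, and the matrix genes of fibroblasts were lower on day 14 as well; their part in these values was not tested.

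In the BMP and TGF-beta pathway, 10 of 36 tested genes were higher and 8 lower, shares close to the background. Bmp2, a ligand made in the differentiating follicle, gave 257.4, 393.9 and 421.7 on day 14 against 139.7, 134.3 and 115.8 on day 23. Smad6 and Smad7, inhibitors inside the cell, were higher by 2.09 ± 0.18 and by 1.10. Bmp4 was not called in its brighter probe set, at 508.1, 691.3 and 588.3 against 486.9, 525.7 and 527.7, and its dimmer one was lower at -1.48, so that their average was called lower at -0.64. Tgfb2, a ligand that promotes regression, was lower on day 14, at 118.3, 73.4 and 82.8 against 182.5, 285.6 and 291.3. So were Ltbp1 and Ltbp2, which bind TGF-beta in the matrix, at -2.29 ± 0.30 and -1.49 ± 0.17. Nog, the BMP antagonist noggin, was not called, at 190.5, 238 and 168.5 against 99.2, 163.1 and 169.9, with the lowest day 14 array below the highest of day 23.

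Among FGF, EGF, IGF and HGF signals, 10 of 41 tested genes were higher and 13 lower on day 14, or 9 and 8 of 28 under the stricter filter on dim genes. Igfbp3, which binds insulin-like growth factors, gave 399.9, 337.5 and 465.3 on day 14 against 2956.2, 2731.2 and 2723.1 on day 23, and its second probe set gave -2.43. Egf gave 18, 36.6 and 19.3 against 342.8, 350 and 314, and Igfbp6 gave 552.4, 653.4 and 619.7 against 3242.2, 2459.3 and 2642.9. All 3 genes were lower in every day 14 array than in any of day 23. Igf1 itself gave no single answer. Its brighter probe set was higher on day 14, at means of 1802 and 1098, and its dimmer one lower, at 63 and 435.9, with log2 differences of 0.72 and -2.88 and an average of -1.08. Of the Notch pathway, 3 of 17 tested genes were higher and 4 lower. After quantile normalisation or centring on medians these became 6 higher and 3 lower of 16. The receptor Notch1 gave 2223.9, 2909.7 and 2752.5 against 1103.2, 1068.7 and 1170.7, and a second, dimmer probe set was not called at 0.19. Dermal papilla genes gave 3 higher and 6 lower of 13, or 5 of each after centring on medians. Corin, a protease of the papilla, was higher at 184.9, 144.5 and 187.1 against 13.4, 35.8 and 22, while the papilla and fibroblast genes Vcan and Crabp1 were lower at -1.23 and -1.43.

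Of 34 genes listed for known parts in the hair cycle, 25 were tested, of which 13 were higher on day 14, 5 lower and 7 not called. The lower ones were Cd34, Dbp, Igfbp3, Per2 and Tgfb2. Others, such as Fgf5, Fgf7, Sox9 and Krt15, were not analysed here.

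**Figure D2:**
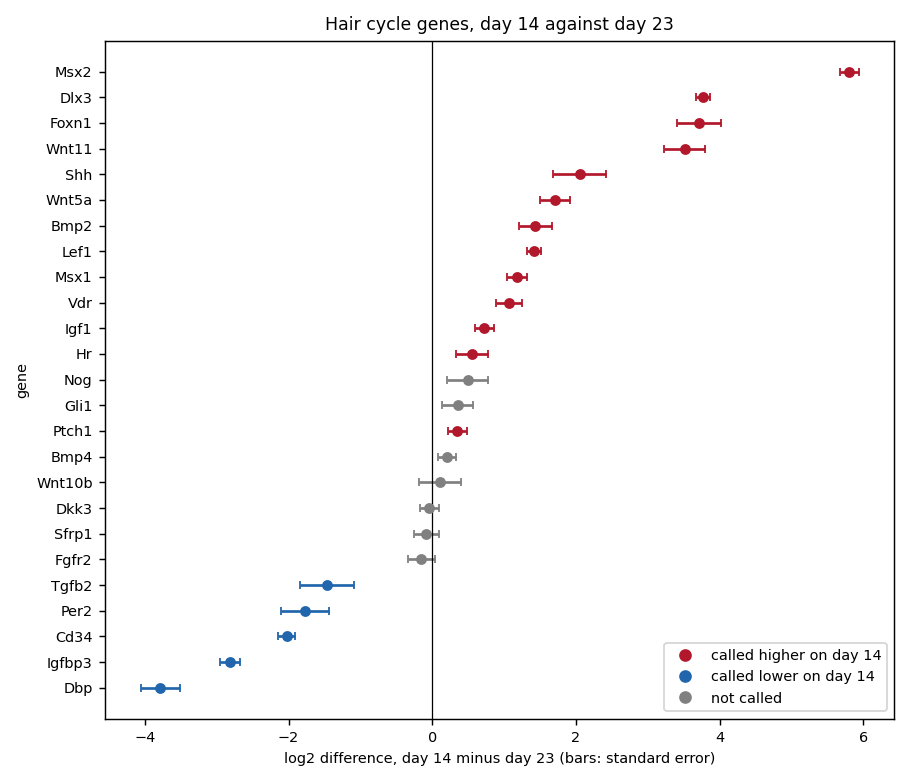
Log2 difference, day 14 minus day 23, of the 25 tested hair cycle genes, each with its standard error as a horizontal bar; red marks genes called higher on day 14, blue lower, grey not called. Msx2 lies at 5.81 and Dbp at -3.79, and Ptch1 and Hr, at 0.34 and 0.55, sit next to genes that were not called.

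Pigment cell genes were higher in 8 of 10 tested cases, with a median log2 difference of 1.72. The 8 genes were Dct, Mc1r, Mitf, Oca2, Pmel, Trpm1, Tyr and Tyrp1, which cover the melanin enzymes, a melanosome matrix protein, a receptor and the lineage's transcription factor. Pmel, the matrix protein, gave 2594, 2986.2 and 2793.2 on day 14 against 423.2, 362.9 and 405.5 on day 23. Tyrp1, a melanin enzyme, gave 1223.6, 1715.8 and 1300.2 against 270.8, 330.7 and 279.2, and 2 further probe sets of it gave 2.92 and 3.62. Kit, the receptor of melanocyte precursors that mast cells also carry, was not called at 0.12, and Sox10 was lower at -0.42.

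Cell division genes were higher on day 14 in 40 of 64 tested cases and lower in 1, with a median of 0.67. Mki67, a marker of dividing cells, gave 830.3, 712.9 and 789.6 on day 14 against 192.4, 176.9 and 237.8 on day 23. A second, dimmer probe set of Mki67 was not called at -0.05, with means of 137.6 and 143.9. Cdc20, an activator of mitotic exit, gave 2058.7, 1615.2 and 1837.2 against 411.7, 510.2 and 449.1. The kinase gene Cdk1 differed by 1.63 and the nucleotide reductase genes Rrm1 and Rrm2 by 1.31 and 1.38. The size was modest beside the hair genes, and 23 members were not called, Pcna, Ccna2, Foxm1 and Mcm3 among them. E2f1, a transcription factor of S phase, was the lower one, at 27.4, 42.9 and 95.6 against 166.3, 192.6 and 187.8. In the synthesis of polyamines, nucleotides and one-carbon units, 9 of 21 were higher and 6 lower. The lower count was 3 after centring on medians and also without mouse 3 of day 14 or mouse 2 of day 23. Ctps, the CTP synthase, was among the higher, at 6891.8, 8339.7 and 7673.3 against 1234, 1465.9 and 1169.3.

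Cytosolic ribosomal protein genes were higher in 22 of 29 tested cases and lower in 2, with a median of 0.81, but only 13 were higher and the median was 0.18 after quantile normalisation. Rpl41, one of the brightest probe sets, gave 55128.8, 63071 and 64133.3 on day 14 against 25693, 24737 and 20185.3 on day 23. Its log2 difference of 1.37 became 0.17 and that of Rplp0, 1.21 under the authors' scaling, became -0.03 after quantile normalisation. The brightest probe sets are those in which the arrays' top intensities differ between the 2 sets of ages. Proteasome genes, which lie lower in intensity, were higher in 21 of 35 cases and lower in 4 (20 and 5 after quantile normalisation). Psmb2, a subunit of the core, gave 3196.4, 2907.2 and 3315.6 against 1082.6, 1378.2 and 1376.1. Of the lower 4, Psmb8, Psmb9 and Psmb10 are the subunits that interferon exchanges into the core, and Psmb8 gave 382.3, 288.8 and 266.3 against 977.5, 1343.4 and 1033.3.

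**Figure D3:**
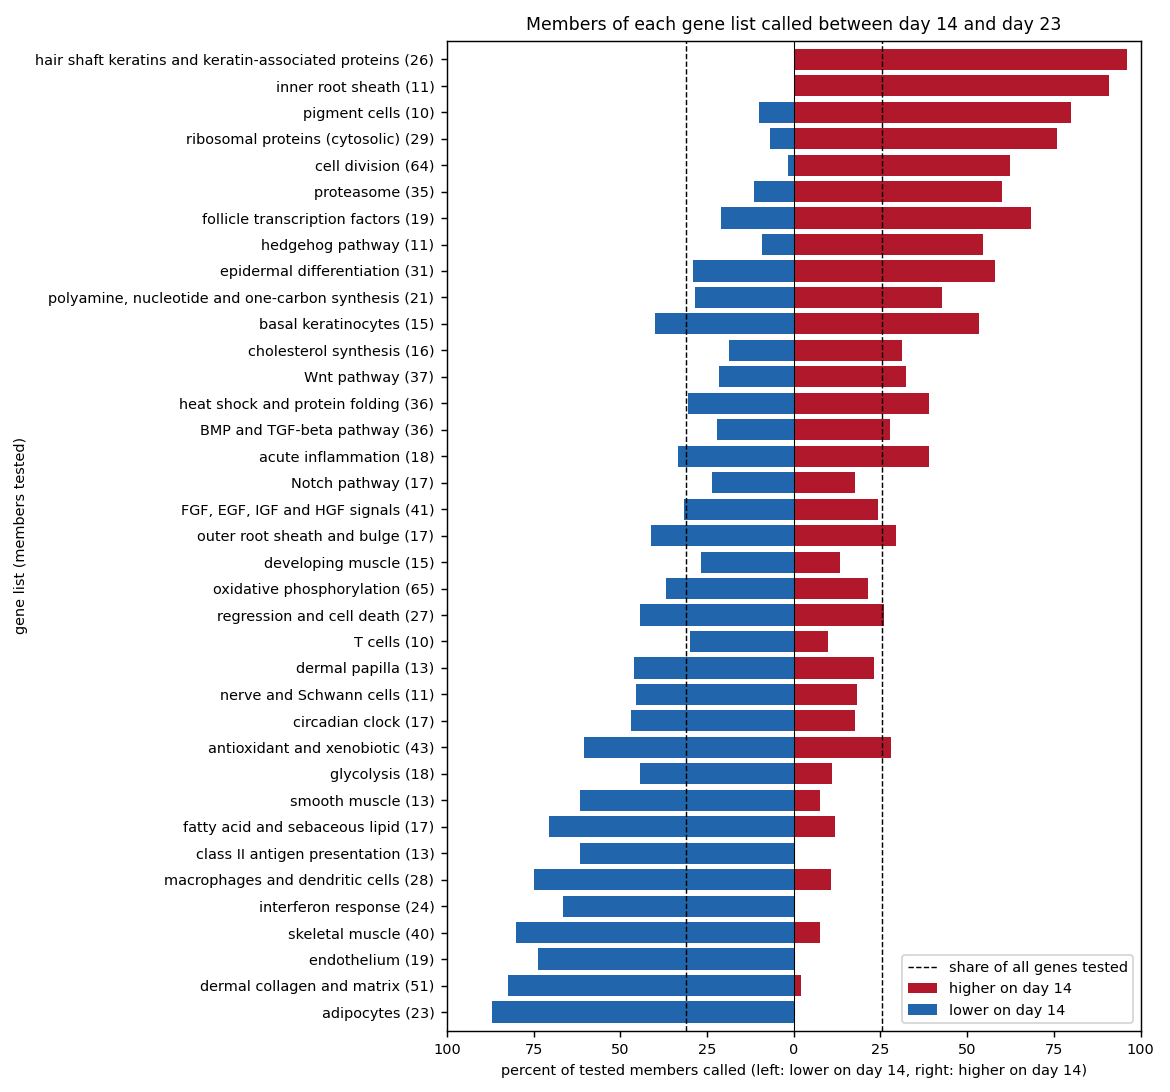
Percent of the tested members of each gene list (number tested in brackets, lists of at least 10) called higher on day 14 (red, to the right) or lower on day 14 (blue, to the left) by limma. Dashed lines mark the shares of all genes tested, 25.3% higher and 31% lower; hair shaft, inner root sheath and pigment cell genes lie at the top, and adipocyte, matrix, endothelial and skeletal muscle genes at the bottom.

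The largest lower differences on day 14 were smaller than the largest higher ones. Zbtb16, which encodes the zinc finger factor PLZF, gave 175.4, 107.9 and 113.6 on day 14 against 4000.6, 1876.2 and 4131.5 on day 23. It was the only gene lower by at least 16-fold, with a log2 difference of -4.61 ± 0.35 (limma adjusted p = 2.65e-08). A second, dimmer probe set of Zbtb16 was lower by -1.14 only (limma adjusted p = 0.0481), with means of 46.13 and 111.8. Slc2a4, the insulin-dependent glucose transporter of fat and muscle, gave 36, 46.9 and 31.8 against 598, 469.8 and 619.2. Aldh1a1, which oxidises retinal to retinoic acid, gave 139.5, 118.8 and 103.9 against 1691.4, 1252.5 and 1887.3. The arrays of the ages did not overlap in any of them. A second probe set of Aldh1a1 was not called at 0.82, with means of 127.3 on day 14 and 70.3 on day 23. Mmp3, a protease of the matrix, gave 112.7, 107.6 and 154.5 against 1455, 1269.2 and 1668.7. Mef2c, a transcription factor of muscle and other tissues, gave 8.9, 85.1 and 10.3 against 693.2, 651.1 and 574.3, and all 4 of its probe sets were lower. Kcna1, a potassium channel gene of nerve, was at the floor on day 14 and at 420, 342 and 478.9 on day 23, at least 12.5-fold higher in rest. Spock2, Dbp, Tns2, Cyp2e1, Apobec2 and Rbp4 completed the 12 largest, at log2 differences of -3.83 to -3.50. In Apobec2, a muscle gene of the cytidine deaminase family, the second probe set was higher on day 14 by 1.05.

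Skeletal muscle genes were lower on day 14 in 32 of 40 tested cases and higher in 3, against a background of 31% lower, and their median was -1.73. Pygm, the glycogen phosphorylase of muscle, gave 576.2, 645.6 and 446.5 on day 14 against 6016.8, 4346.9 and 5740.5 on day 23. Ryr1, the calcium release channel, gave 269.9, 366.4 and 292.2 against 3143.2, 2393.9 and 2649.7. Ckmt2, the mitochondrial creatine kinase of muscle, gave 265, 211.2 and 264.2 against 3547.1, 2051.4 and 2434.7. All 3 genes were lower on every array of day 14 than on any of day 23, whereas the α-actin gene Acta1 differed by -0.61 only. The 3 higher genes were Tnni1, Tnnt1 and Tpm1, of which the first and second encode troponins of slow fibres. Myh8, the perinatal myosin, was also higher on day 14, at 282.2, 348.8 and 289.6 against 38.2, 85 and 100.8, and had a mean of 5158 on day 1. A separate list of developing muscle genes had no such direction. Of its 15 tested genes, 2 were higher on day 14, 4 lower and 9 not called, with a median of -0.13. The summed intensity of the skeletal muscle list was 62770 to 72230 on day 14 and 169000 to 213600 on day 23. The amount of muscle in each skin piece is unknown, and its part in the genes lower on day 14 that muscle also expresses, such as Slc2a4, Mef2c and the glycolytic Pfkm (-2.27), was not tested.

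Adipocyte genes were lower on day 14 in 20 of 23 tested cases and higher in none, with a median of -1.33. Retn, the fat hormone resistin, gave 401.7, 642.8 and 533.6 on day 14 against 2710.4, 3552.8 and 2400.2 on day 23, and Adipoq, adiponectin, gave 1707.2, 1401.7 and 1576.9 against 7743.4, 5926.8 and 6323.2. Car3, a carbonic anhydrase abundant in fat and muscle, gave 2517, 2230.5 and 2436.4 against 13210.8, 12575.8 and 10543.4. Pparg, the master regulator of fat cells, was lower by a log2 difference of -2.06, while Fabp4, a defining fatty acid-binding protein of these cells, was not called at -0.14 and Lep not at 0.63. Ucp1, which uncouples respiration in brown adipocytes, was at the floor on day 14 and at 187.2, 436.6 and 54.2 on day 23. It was at least 4.99-fold higher there, but its call was lost without mouse 2 of day 23 (limma adjusted p = 0.1). The call was also lost with a higher floor, without the filter and with its probe sets averaged. A second probe set of Ucp1 was not called at 0.36, with means of 73.77 and 60. Of the fatty acid and sebaceous lipid genes, 12 of 17 were lower and 2 higher. Thrsp, a regulator of lipid synthesis, gave 301.7, 221.2 and 281 against 1667.8, 3841.3 and 1479, and the synthase Fasn 1598.6, 1682.7 and 1493.3 against 3202.8, 5924 and 3996.6. In both genes mouse 2 of day 23 was the highest. Cholesterol synthesis gave 5 higher and 3 lower of 16, or 8 and 2 after centring on medians.

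Dermal collagen and matrix genes were lower on day 14 in 42 of 51 tested cases and higher in 1, with a median of -1.05. Fmod, the collagen-binding fibromodulin, gave 42.8, 50.4 and 165.1 on day 14 against 579.9, 815.7 and 792 on day 23. Lox, which crosslinks collagen and elastin, gave 291.3, 216.9 and 260.5 against 1204.2, 1436.3 and 1542.8. A second, dimmer probe set of Lox was not called at 0.83, with means of 139.6 and 80.57. Col1a1 was not called, at 22584.1, 26759.8 and 25619.8 against 25989.6, 25335.4 and 22033.5, and it lay at the top of the intensity range on day 23. Col3a1 was lower at 10042.8, 10211.7 and 10495.1 against 16460.8, 16037.3 and 16319. The chaperone of collagen Serpinh1 was lower by -2.22 and the small proteoglycans Lum, Ogn and Dcn by -2.31, -2.21 and -1.38. Tnc, tenascin C, which surrounds growing follicles, was the higher member at 1.15.

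Endothelial genes were lower on day 14 in 14 of 19 tested cases and higher in none, with a median of -1.14, and smooth muscle genes were lower in 8 of 13. Lyve1, a receptor of lymphatic vessels, gave 105.8, 109.3 and 62 on day 14 against 266.1, 315.7 and 255.7 on day 23. Flt1, a VEGF receptor, gave 94, 58.8 and 94.3 against 228, 208.8 and 201.9. A second, dimmer probe set of Flt1 was not called at -1.02. Tpm2, a tropomyosin of smooth and skeletal muscle, gave 1187.4, 1338.2 and 1088.4 against 6268.9, 5107.2 and 5518. Of nerve and Schwann cell genes, 5 of 11 were lower and 2 higher, with the myelin genes Pmp22 and Mbp at -2.23 ± 0.14 and -2.26 ± 0.22. A second probe set of Mbp was not called at -0.38. One of the 2 higher genes, Egr2 (Krox20), is made by Schwann cells and by the follicle, and gave 3007.7, 2437.6 and 2288.5 against 1228.3, 1408.8 and 1197. Of 8 red blood cell genes, 4 were higher on day 14 and none lower, among them Alas2, the heme enzyme of red cells, at 364.5, 441.8 and 332.2 against 138.2, 203 and 184.4.

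Macrophage and dendritic cell genes were lower on day 14 in 21 of 28 tested cases and higher in 3, with a median of -1.26. Lyz2, lysozyme of myeloid cells, gave 320.5, 273.7 and 279 on day 14 against 2096.4, 2242.6 and 2007.3 on day 23, and the mannose receptor gene Mrc1 gave 126.7, 139.4 and 58.4 against 653.9, 541.1 and 831.5. C1qb, a complement gene of macrophages, gave 351, 219.4 and 187.6 against 1261.4, 1272.2 and 1237.3. The groups stood apart in all of these probe sets. A second probe set of C1qb was not called at -0.18, with means of 420.3 and 475.1. The genes of class II antigen presentation were lower in 8 of 13 cases, with Cd74, the invariant chain, at 3853.7, 2558.5 and 2460.8 against 9418.1, 8277.2 and 7885. The transcriptional activator of that group, Ciita, was not called at 0.43. Of 8 mast cell genes tested, 3 were lower, 1 higher and 4 not called. The proteases Cpa3 and Cma1 were lower, at -2.23 and -1.44, as was the histamine enzyme gene Hdc, at 29.3, 23.3 and 93.9 against 148.2, 204.7 and 216.6, and Mcpt1, another protease, was higher at 2.06. The tryptase gene Tpsb2 was not called at -0.20. T cell genes were lower in 3 of 10 cases and higher in 1, and B cell genes lower in 1 of 9. Thy1, which fibroblasts carry too, gave 943.9, 874.4 and 821.2 against 2845.5, 3104.4 and 2869. The T cell kinase gene Zap70 was higher in 1 probe set (2.09) and not called in the other (-1.68), and their mean was not called at 0.20.

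Interferon response genes were lower on day 14 in 16 of 24 tested cases and higher in none, with a median of -1.33. Ifi204, an interferon-induced DNA sensor, gave 90.9, 90.6 and 72 on day 14 against 713.3, 536.8 and 696.2 on day 23, and Gbp2, a guanylate-binding protein, gave 92.2, 65.4 and 24.3 against 311.3, 382.3 and 297.8. Irgm1, a GTPase of the same response, was at the floor on day 14 and 130.9, 153.5 and 152.5 on day 23, at least 4.41-fold higher in rest. Acute inflammation genes went both ways, 7 higher and 6 lower of 18. S100a8, a calcium-binding protein of neutrophils and stressed keratinocytes, was higher on day 14 at 1264.2, 1542.9 and 1377.5 against 245.6, 181.1 and 189.2. The chemokine gene Ccl2 was lower at -1.30, a call that was lost with a higher floor.

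**Figure D4:**
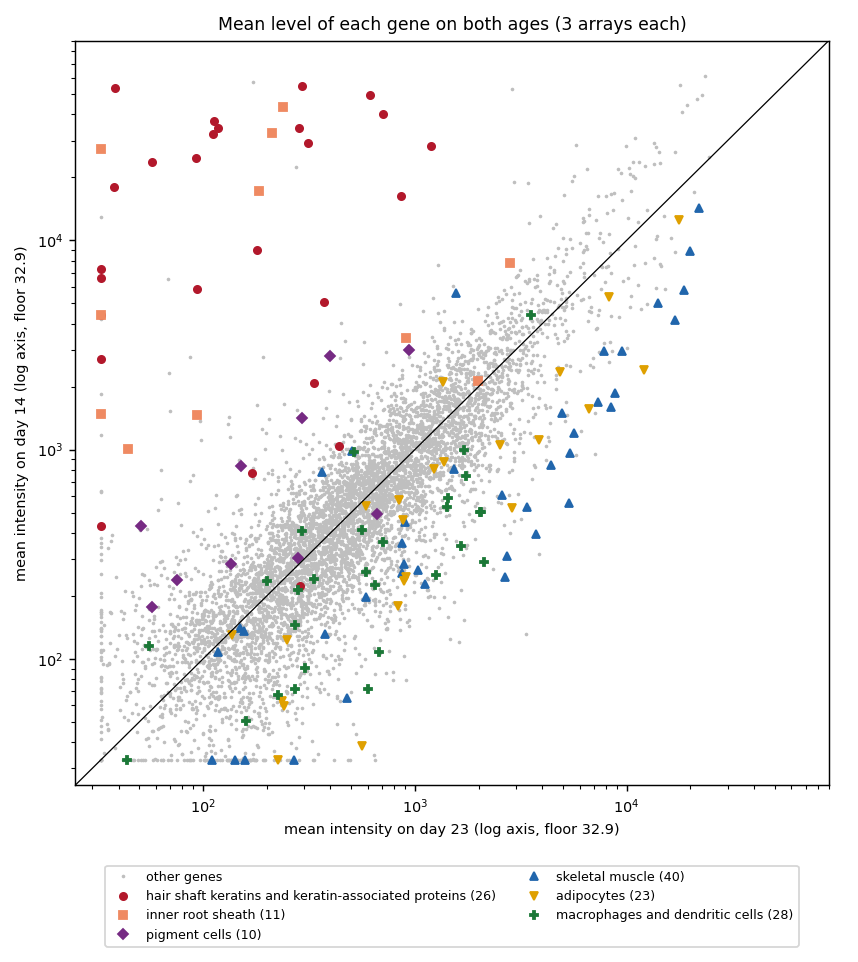
Mean intensity on day 14 (vertical) against day 23 (horizontal) for each of the 6562 genes tested, both axes logarithmic and 3 arrays per age, with means under 32.9 drawn at that floor and the diagonal marking equal levels. Hair shaft and inner root sheath genes (red circles, orange squares) and pigment cell genes (purple) lie above the diagonal with few exceptions, and most skeletal muscle, adipocyte and macrophage genes lie below it.

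**Figure D5:**
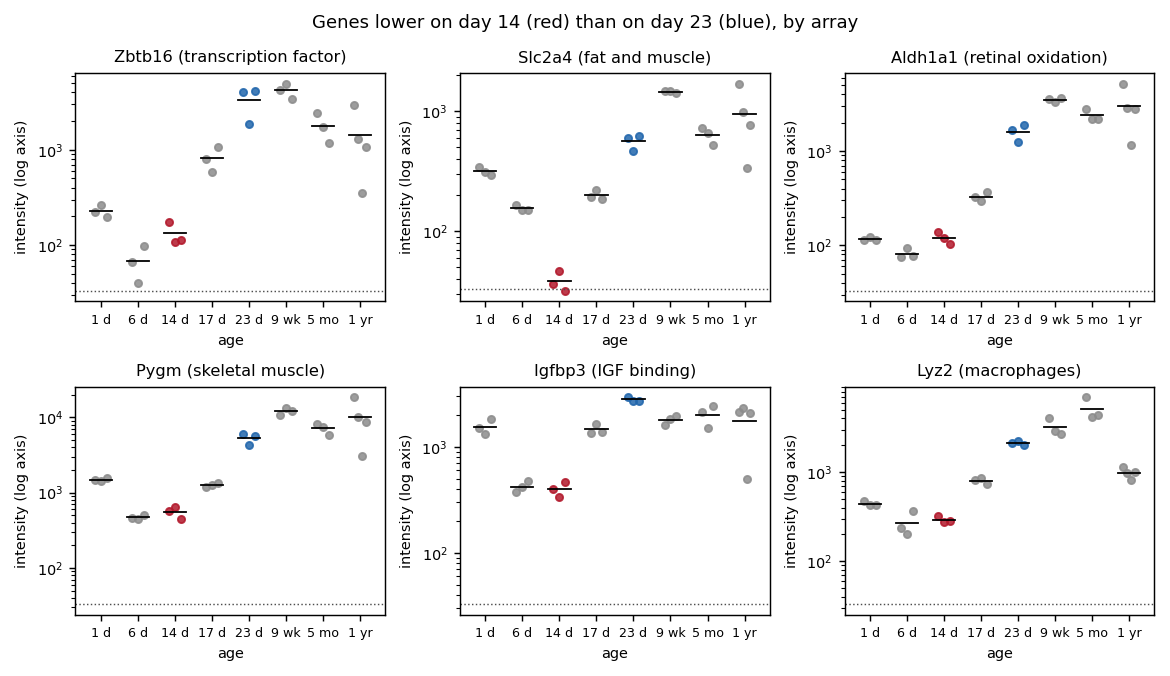
Intensity (log axis) of 6 genes on each of the 25 arrays by age, drawn with day 14 in red, day 23 in blue, other ages in grey, bars at the mean of an age and a dotted line at the floor. All 3 arrays of day 14 lie below all 3 of day 23 in each gene, and the means of day 17 lie between, from 199.9 for Slc2a4 to 1464 for Igfbp3.

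Of 17 clock genes tested, 8 were lower and 3 higher on day 14. Dbp, an output factor of the circadian clock, gave 9.4, 42.1 and 17.2 on day 14 against 469.3, 443.8 and 572.8 on day 23. Nr1d2 and Nr1d1, nuclear receptors that repress the clock's activators, gave 245.6, 247.1 and 219.8 against 1240.6, 1179.5 and 1238.8, and 317.7, 272.2 and 393.5 against 821.1, 787 and 811.7. Per2 gave 44.1, 62.2 and 33.2 against 131.7, 158.8 and 172, and Per1 was lower by -1.11. Arntl, which oscillates in antiphase to these genes in many tissues, was not called at 0.25. Dbp was low on day 17 too, at a mean of 21.87, and on day 6, at 16.5, and its mean at 9 weeks was 278.7. The sources used here do not state the time of day at which skin was taken, so that clock phase and hair cycle phase cannot be told apart.

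Genes for antioxidant and xenobiotic metabolism were lower on day 14 in 26 of 43 tested cases and higher in 12. Gpx3, the secreted glutathione peroxidase, gave 1158.8, 889.3 and 800 on day 14 against 8168.7, 6514.3 and 6544 on day 23, and Cyp2e1, a cytochrome of fat and liver, gave 334.9, 311.6 and 309.3 against 3448, 2711.5 and 5464.3. Several glutathione transferases were lower, Gstt2 by -2.05 and Gstt1 by -1.66 among them. The genes that make and reduce glutathione went the other way, with Gclc, Gclm, Gss and Gsr higher by 1.66, 0.77, 0.87 and 0.69. Gpx2, an epithelial peroxidase, and Txnrd1, thioredoxin reductase, were also higher, by 2.07 and 0.95. Oxidative phosphorylation genes gave 14 higher and 24 lower of 65, with a median of -0.06. With arrays centred on their medians these became 21 higher, 16 lower and 0.07, so that no direction is read for the list. The leading lower ones, Cox7a1 (-2.86) and Cox6a2 (-1.75), encode subunits of muscle. Glycolysis genes gave 8 lower and 2 higher of 18, or 4 and 1 in the fit of all 25 arrays. In the heat shock and folding list, 14 were higher and 11 lower of 36. Fkbp5, a co-chaperone induced by glucocorticoids, gave 358.7, 551.6 and 484.8 against 2756.8, 3054.3 and 3688.9. Dnajb9, a chaperone of the endoplasmic reticulum, was lower at 128.3, 131.7 and 152.1 against 565.1, 826.5 and 1155.7. A second probe set of Dnajb9 was not called at -0.13, with means of 134.4 and 145.6. Genes of regression and cell death gave 12 lower and 7 higher of 27, with Bnip3, a mitochondrial death protein, at 201.8, 192.1 and 211.3 against 1042.1, 688.6 and 964.9.

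The arrays of day 17 lie between both ages in time, and distances were taken on the log2 scale. Of the 141 genes at least 4-fold higher on day 14, the day 17 mean was nearer to day 14 for 101, beyond day 14 for 27, nearer to day 23 for 12 and beyond day 23 for 1. Of the 231 genes at least 4-fold lower, it was nearer to day 14 for 132, nearer to day 23 for 89, beyond day 14 for 8 and beyond day 23 for 2. Of all 1659 genes called higher, the day 17 mean was nearer to day 14 for 37% and beyond day 14 for 21.4%. It was nearer to day 23 for 27.2% and beyond day 23 for 14.4%. For all 2033 genes called lower, these shares were 41.9%, 14.4%, 34.8% and 9%. Gene lists differed in this. All 25 hair shaft genes called had a day 17 mean nearer to or beyond that of day 14, as Krtap9-1 did at 28920, and so did all 10 of the inner root sheath, as Krt25 did at 17570. The division genes lay on the other side, with 33 of the 41 called having a day 17 mean nearer to or beyond that of day 23; Cdc20 was at 787.3. Of the 9 pigment cell genes called, 5 were nearer to day 23 and 1 beyond it, with Pmel at 843.8 and Tyrp1 at 408.1. Of the 24 ribosomal protein genes called, 18 were nearer to day 23 and 2 beyond it, and of the 25 proteasome genes called, 14 and 8; day 17 shares its low top intensities with day 23. These positions use the same arrays of day 14 and day 23 as the calls and were not tested.

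Arrays of other mice allowed a like comparison of skin with and without shaft formation. Skin of day 6, when shafts are being made, was compared with skin of day 1 and of 9 weeks in a separate limma fit that used no array of day 14 or day 23. The day 6 arrays enter both comparisons, and 1 of the 3 mice of 9 weeks had hair gene intensities far above the other 2 (2.49% of all intensity against 0.144% and 0.147%). On day 6, 957 probe sets (10.8%) or 774 genes (11.8%) were higher than on day 1, and 1476 probe sets (16.7%) or 1058 genes (16.1%) lower. Against 9 weeks, 1665 probe sets (18.9%) or 1317 genes (20.1%) were higher on day 6, and 1393 probe sets (15.8%) or 1098 genes (16.7%) lower. The balance of day 6 against day 1 depended on the scaling, with 1934 probe sets higher and 630 lower after centring on medians, and the lower count was 802, 866 or 860 without mouse 1, 2 or 3 of day 1 and 936 without mouse 2 of day 6. The shares and list counts below that use day 1 rest on the authors' scaling. Of the 1659 genes higher on day 14 than day 23, 33.9% were also higher on day 6 than day 1 and 2.47% lower, and they made up 72.6% of the genes higher on day 6. Of the same 1659, 45.4% were higher on day 6 than at 9 weeks and 2.59% lower, which is 57.3% of the genes higher there. Of the 2033 lower genes, 32.8% were lower and 3.2% higher on day 6 than day 1, and 39.5% lower and 8.02% higher on day 6 than at 9 weeks. Day 1 is younger and 9 weeks older than day 6, so the order of age is opposite in these comparisons.

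By list, 23 of 26 hair shaft genes were higher on day 6 than day 1 and 25 than at 9 weeks, with medians of 4.57 and 4.01. The spread of this fit includes the 9 week mouse that stands apart in hair genes. Krt25, with a mean of 3963 on day 1 and 18720 on day 6, had a standard error of 1.73 here against 0.08 in the fit of days 1 to 23, and its missing call between days 6 and 1 is not read. Skeletal muscle genes were lower on day 6 in 31 of 40 cases in either comparison, and macrophage and dendritic cell genes in 16 and 21 of 28. Cell division genes were higher on day 6 than at 9 weeks in 55 of 64 cases, but than day 1 in only 4, where Mki67 had a mean of 1047 on day 1 and 1472 on day 6. Ribosomal protein genes were higher on day 6 than day 1 in 18 of 29 cases, ages that differ in top intensity, and than 9 weeks in 4, ages that share it. For proteasome genes the counts were 14 and 19 of 35. Adipocyte genes were lower on day 6 in 6 and 12 of 23 cases, and matrix genes in 16 and 12 of 51 with 19 higher than at 9 weeks. Zbtb16 was lower on day 6 in both comparisons, by log2 differences of -1.82 and -6.03, whereas Kcna1 was called in neither.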

How the data were processed

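Each array, labelled as 1 mouse, measured RNA from back skin with 12488 probe sets. The deposited values are linear intensities, which the authors had scaled: as the values show, all 25 arrays share 1 mean once 2% of probe sets are left out at each end. The sources used here name neither software nor scanner. Here intensities under the 20th percentile of the table (32.9) were set to that floor, log2 was taken, and probe sets above the 40th percentile (128.3) on at least 3 arrays were kept. Probe sets were named through the platform annotation (10833 with 1 symbol, 396 with several, 1193 with none), with symbols updated by gene number for 10817.

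Differences were tested with limma 3.58.1 in R 4.3.3 (1 mean per age, intensity trend in the empirical Bayes step) over the 15 arrays of days 1, 6, 14, 17 and 23, and p-values were adjusted over all 8825 probe sets by Benjamini and Hochberg. Arrays of 9 weeks stayed out of the spread because 1 mouse differed in hair genes. A second fit held the 9 arrays of days 1 and 6 and 9 weeks. Errors of differences between days 14 and 23 are standard errors of the fit of 15 arrays, with 3 arrays per age, and their number limits the precision. The fit was also run on simulated data with independent noise for each probe set and few planted changes. Those data held no difference in scaling between ages and no pools, so nothing is concluded from them here.

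Named genes were the 12 largest non-overlapping differences in each direction, up to 4 called members of each of 41 gene lists with the largest differences, and 25 hair cycle genes; Adipoq, Krt1, Krt10, Lor, Col1a1, Col3a1 and other members without values per array were named after their values were seen. The arrays, members and lists were chosen with earlier results of these data known. Lists are described by counts and medians, with no test over members. Alternatives covered normalisation, floor, filter, arrays in the fit, probe sets, sex markers and left-out mice. Promoters came from RefSeq (GRCm38.p6). Protein sequences were not used here.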

Additional observations from a re-analysis of the deposited data

How the results depend on the processing

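The counts of probe sets higher and lower on day 14 than day 23 (2151 and 2624) stayed within 1.5 times under every alternative run: 1815 to 2650 higher and 2123 to 2637 lower, with the low and high ends of the higher calls in the fit of all 25 arrays and after centring on medians. Leaving out 1 mouse at a time gave 1904 to 2006 higher and 2366 to 2468 lower. Of 184 named genes, 174 to 184 kept their direction and side of the threshold where all were tested. The mouse numbers are shared between ages, but the deviations of arrays with the same number correlated at only 0.0288, -0.00163 and 0.058, so the numbers were not taken as pairs, although mice 1 and 3 correlated best with their own number. With the number as a replicate block, 2146 probe sets were higher and 2615 lower, and Slc2a3 lost its call. Slc2a3 lost it under several other alternatives too, among them no filter, the fit of 6 arrays and the fit of all 25 arrays. For day 6 against day 1, centring on medians gave 1934 higher and 630 lower in place of 957 and 1476, and leaving out 1 mouse gave 802 to 1244 lower and 643 to 775 higher; the cause was not tested. Directions turned for Rplp0 after quantile normalisation (-0.0282), for Igf1 with its probe sets averaged (-1.08) and Bmp4 likewise (-0.639, which gained a call), for the median of oxidative phosphorylation genes after centring (0.0682) and for that of FGF, EGF, IGF and HGF signals under the stricter filter (0.0341). Medians near 0 also changed sign for T cells (-0.777 under the stricter filter), B cells (-0.403 with probe sets averaged) and acute inflammation (0.00861 after quantile normalisation). Genes dim on both ages have no order below the floor.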

Other observations

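Some of the larger differences lay outside the gene lists, and the genes here were chosen after their values were seen. Gjb2 and Gjb6, which encode connexins of epithelial gap junctions, were higher on day 14. Gjb2 gave 20256.2, 23094.9 and 23914.2 on day 14 against 239.6, 337.8 and 250 on day 23, and Gjb6 gave 1095.2, 1201.6 and 1218.4 against 21, 26.6 and 38. Fbp1, a gluconeogenic phosphatase, was at the floor on day 23 and at 3576.9, 4503.3 and 4486.2 on day 14. Car6, a secreted carbonic anhydrase, gave 2880.3, 2785.3 and 2667.2 against 78.1, 30.9 and 152.4, and its mean on day 6 was only 410.1, unlike the hair genes beside it. Glycam1, a mucin of lymph node venules and mammary gland, varied within day 23: it gave 584.8 and 1346.1 in mice 1 and 2 and 14.5 in mouse 3, and 20.4, 24.1 and 19.5 on day 14. Its mean was 253.2 on day 17 and 20.37 at 9 weeks.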
